A study of Homo sapiens with 12 samples.

Results

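The 9 genes described here encode surface ligands through which a cell is read by natural killer (NK) cells, T cells and macrophages: the PD-1 ligands CD274 (PD-L1) and PDCD1LG2 (PD-L2), the NKG2D ligands MICA, MICB, ULBP1, ULBP2 and ULBP3, the anti-phagocytic signal CD47, and PVR (CD155). They were chosen by symbol, each symbol stood on a single row of the count table, and they make up 9 of its 57500 genes. All 9 passed the filter on low counts that left 16251 genes for testing.

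RNA was sequenced from MRC5 cells, a human lung fibroblast line, in 4 groups of 3 libraries each. Prol libraries came from proliferating cells that were not irradiated. Sen(IR) libraries came from cells made senescent with 20 Gy of ionizing irradiation and collected 10 to 12 days later. Sen(IR)+UK5099 libraries came from irradiated cells given 100 µM UK5099, an inhibitor of the mitochondrial pyruvate carrier, from day 1 onward. Sen(IR)+CTPI2 libraries came from irradiated cells given CTPI2, an inhibitor of the mitochondrial citrate carrier SLC25A1, on the same schedule at 15 or 30 µM. The sources used here do not tie one of these CTPI2 doses to the sequenced cells, and both lie below the UK5099 dose. All groups are 1 cell line, and the labels do not say whether libraries of a group came from separate cultures. The p-values therefore weigh group differences only against the spread between these libraries. The study's figure legends give 3 independent experiments for the CTPI2 expression heatmaps and 3 independent conditions for RNA-seq in the UK5099 figure. They do not say what was separate.

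NK cells weigh activating against inhibitory signals on a target. NKG2D, an activating receptor, binds MICA, MICB and the ULBP proteins, which are distant relatives of MHC class I that stressed or damaged cells place on their surface. PVR is bound by the activating receptor DNAM-1 and by the inhibitory receptor TIGIT. PD-L1 and PD-L2 restrain T cells and some NK cells through PD-1, and CD47 restrains phagocytes through SIRPα. Senescent cells are known to be cleared in part by NK cells, T cells and macrophages, which is why these ligands are followed in senescence. Transcript levels in bulk RNA do not separate fewer cells carrying a transcript from less of it per cell, and they do not measure protein at the surface.

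The genes fall into neighbourhoods. In the GENCODE v44 annotation of GRCh38, CD274 (chr9:5450503-5470566) and PDCD1LG2 (chr9:5510531-5571282) lie on the plus strand with starts 60.0 kb apart. MICA (chr6:31399784-31415315) and MICB (chr6:31494881-31511124) lie on the plus strand of the MHC region with starts 95.1 kb apart. ULBP2 (chr6:149942014-149949235, plus), ULBP1 (chr6:149963943-149973715, plus) and ULBP3 (chr6:150061053-150069121, minus) form a cluster on the other arm of chromosome 6. CD47 (chr3:108043091-108091862, minus) and PVR (chr19:44643798-44666162, plus) stand alone.

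Promoters of 5 genes are shown: MICA with MICB and ULBP1 with ULBP2, neighbours with related products whose changes after irradiation differed in size or direction, and CD274, whose level fell most. Each run is the 250 bases before the RefSeq start on GRCh38.p14, written 5′ to 3′ on the gene's strand, and an entry was found for 8 of the 9 genes. Capitals mark matches to the motifs searched. The windows are chr9:5450292-5450541 for CD274, chr6:31403345-31403594 for MICA, chr6:31497895-31498144 for MICB, chr6:149963693-149963942 for ULBP1 and chr6:149941764-149942013 for ULBP2, all on the plus strand. RefSeq and GENCODE starts differ for CD274, MICA and MICB, and also for CD47 and PVR, whose windows were searched but are not shown. The MICA and MICB windows lie wholly past the GENCODE starts at 31399784 and 31494881, and the CD274 window runs past 5450503. The CD47 window (chr3:108091032-108091281, minus strand) lies wholly past the GENCODE start at 108091862. The PVR window (chr19:44643660-44643909, plus strand) runs past 44643798.
CD274: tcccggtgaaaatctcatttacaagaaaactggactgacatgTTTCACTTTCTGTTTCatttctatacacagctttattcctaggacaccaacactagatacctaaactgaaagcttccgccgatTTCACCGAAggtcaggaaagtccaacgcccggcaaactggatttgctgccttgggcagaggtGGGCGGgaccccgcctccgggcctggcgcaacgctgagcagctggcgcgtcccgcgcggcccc
MICA: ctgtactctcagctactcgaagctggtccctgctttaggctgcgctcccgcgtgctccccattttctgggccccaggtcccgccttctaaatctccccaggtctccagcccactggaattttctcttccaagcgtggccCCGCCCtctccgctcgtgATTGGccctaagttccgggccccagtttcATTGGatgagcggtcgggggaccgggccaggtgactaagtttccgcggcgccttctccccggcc
MICB: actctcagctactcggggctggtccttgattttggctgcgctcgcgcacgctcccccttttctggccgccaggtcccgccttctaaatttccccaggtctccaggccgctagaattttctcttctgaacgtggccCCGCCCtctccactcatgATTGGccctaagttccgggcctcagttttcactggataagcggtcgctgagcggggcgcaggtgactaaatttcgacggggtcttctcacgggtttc
ULBP1: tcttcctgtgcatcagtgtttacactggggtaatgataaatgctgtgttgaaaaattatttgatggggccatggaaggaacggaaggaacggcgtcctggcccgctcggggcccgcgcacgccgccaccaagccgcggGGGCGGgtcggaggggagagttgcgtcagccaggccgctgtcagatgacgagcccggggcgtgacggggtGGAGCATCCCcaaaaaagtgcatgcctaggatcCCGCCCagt
ULBP2: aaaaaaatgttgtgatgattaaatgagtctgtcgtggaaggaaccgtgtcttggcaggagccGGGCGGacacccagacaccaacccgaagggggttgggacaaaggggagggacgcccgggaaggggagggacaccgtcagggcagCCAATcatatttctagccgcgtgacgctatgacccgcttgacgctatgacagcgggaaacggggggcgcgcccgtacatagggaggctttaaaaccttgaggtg

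The MICA and MICB windows were near copies of each other. In a global alignment of 254 columns they were identical at 210, or 82.7%, whereas every other pair of the 8 windows was identical at 40.4% to 53.4% of its columns. ULBP1 and ULBP2, also neighbours, were identical at 46%.

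10 motifs were searched on both strands of these windows and of 27305 RefSeq promoter windows of the same length. CD274 alone of the 8 held the interferon-stimulated element, GAAA and again GAAA with any 2 bases between, which 3.07% of all windows hold. Its 2 matches, on the minus strand, overlap each other and begin 208 and 202 bases before the start. CD274 also alone held the GAS element TTCNNNGAA, a STAT-binding sequence present in 6.78% of all windows, 125 bases before the start. The kappaB site was found in ULBP1 and ULBP3, each time as the same letters on the minus strand, and in 9.57% of all windows. In ULBP3 that match overlaps a GC box.

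The GC box GGGCGG was in 7 of the 8 windows and in 42.3% of all windows. The CCAAT box CCAAT was in MICA, MICB and ULBP2 and in 33% of all windows. None of the 8 windows held the AP-1 site TGANTCA (6.6% of all windows), the E-box CACGTG (6.49%), the C/EBP-ATF element TGATGNAA (3.19%), the E2F site TTTNGCGC (1.54%) or the heat shock element, GAA, TTC and GAA with any 2 bases between each (0.439%). PVR held none of the 10. A match is a run of letters and not a binding site shown to be used.

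Libraries held 20597736 to 28245693 counts. The irradiated libraries carried the transcript changes of their label: CDKN1A, the p21 cell cycle inhibitor, was higher in Sen(IR) than in Prol, and MKI67, LMNB1, CCNA2 and HMGB2 were lower. These are 5 of 5 genes called by the rule given below, which called 47.2% of all genes tested in this comparison. All 8 fibroblast markers examined were present in every group. Of 10 leukocyte markers, 9 were too low to test. The tenth, CD14, averaged 0.192 CPM (counts per 1000000 counts of the scaled library) in Prol and 3.32 CPM in Sen(IR), and the whole list summed to 0.26 to 0.429 CPM in Prol and at most 5.07 CPM in an irradiated library. PDCD1, which encodes PD-1, had no count in any library.

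Between genes, levels were compared per length, as CPM per kilobase of annotated exon. The length was that of all annotated exons merged, and the order between genes can change with the length used. Merged exons and canonical transcript held 3851 and 1370 bases for MICA, and 10427 and 5792 for PVR. They held 8234 and 5292 bases for CD47, and 2432 in both cases for PDCD1LG2. The order by canonical transcript length was not computed. In Prol the order was led by CD47 at 27 ± 1.95 CPM per kb (SD, n = 3) and PDCD1LG2 at 24.3 ± 2.69, whose libraries overlapped. PVR followed at 16.9 ± 0.87, then CD274 at 11.2 ± 2.17 and MICA at 10 ± 0.636, which overlapped, and ULBP1 stood last at 0.532 ± 0.0854. In Sen(IR) the order changed to CD47, PVR and MICA, at 43 ± 0.513, 32.1 ± 1.32 and 25.1 ± 0.726 CPM per kb, with no overlap between neighbours in that order. CD274 fell from the fourth to the eighth place, at 1.43 ± 0.248 CPM per kb, where its libraries overlapped those of ULBP3 at 1.39 ± 0.179. With UK5099, MICA stood above PVR, at 24.7 ± 0.9 against 15.8 ± 0.856 CPM per kb, and CD274 stood last at 0.429 ± 0.0339.

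**Figure D1:**
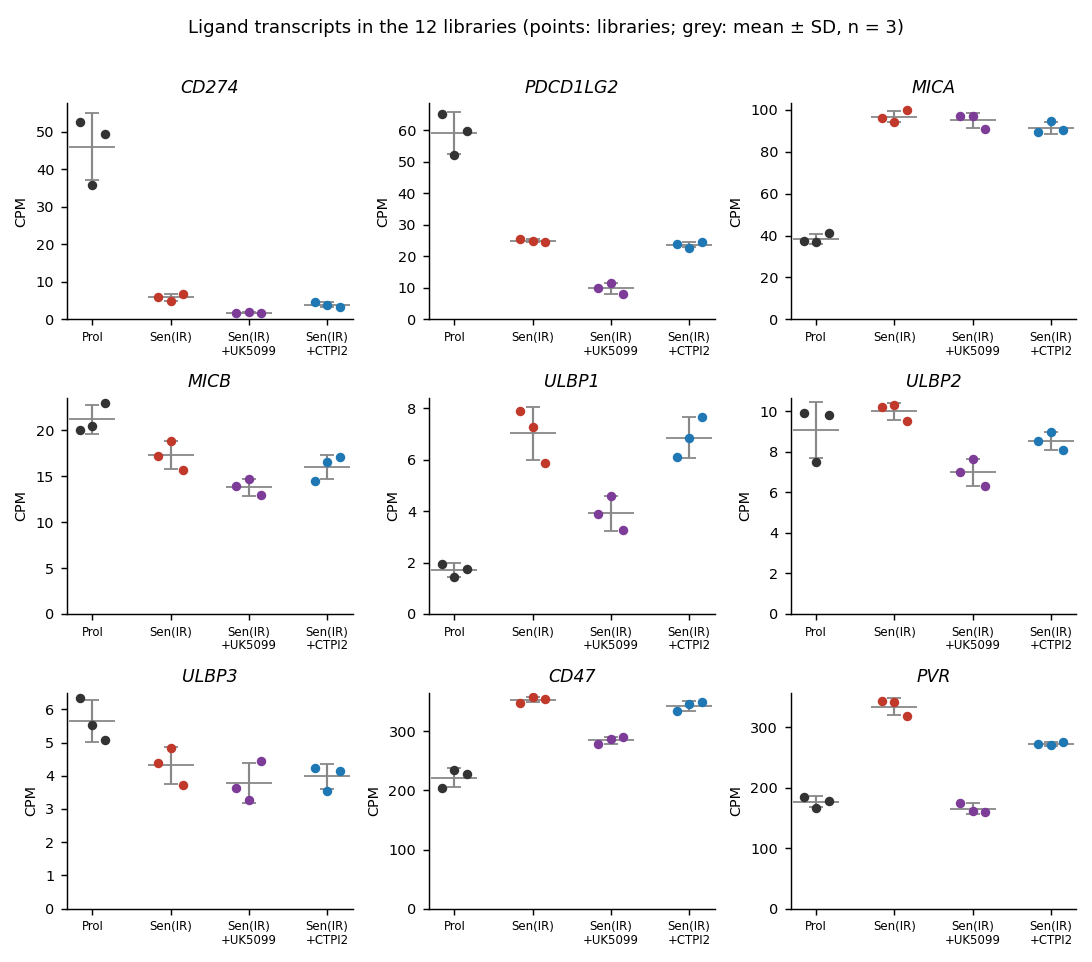
Level of each of the 9 ligand genes in the 12 libraries, in CPM (linear axis from 0), with 1 point per library in the 4 groups and grey bars for the mean ± SD of 3 libraries. CD274 and PDCD1LG2 are highest in Prol, MICA is near 38.5 CPM in Prol and at or above 89.3 CPM in every irradiated library, and PVR in Sen(IR)+UK5099 lies at the level of Prol.

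Irradiation-induced senescence was first compared with proliferation. The ligands did not move together: NKG2D ligand transcripts ULBP1 and MICA rose 4.11-fold and 2.51-fold, PVR 1.89-fold and CD47 1.59-fold, whereas CD274 fell to 0.127 of its level in Prol and PDCD1LG2 to 0.424. A gene was called where the edgeR adjusted p was under 0.05 and the log2 fold change was over 0.5 in size. By this rule 6 of the 9 were called, 4 higher and 2 lower, in a comparison where 47.2% of all genes tested were called, 24.8% higher and 22.4% lower. There was no overlap between Prol and Sen(IR) for 8 of the 9, against 70.9% of all genes. The median log2 fold change of the 9 was 0.14 and that of all genes tested was 0.01.

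CD274 encodes PD-L1, the main ligand of PD-1 on tissue and tumour cells. It stood at 52.7, 35.9 and 49.4 CPM in Prol and at 6, 4.78 and 6.81 CPM in Sen(IR), so that the highest senescent library was far below the lowest proliferating one. The log2 fold change was −2.97 ± 0.14 (SE, 95% interval −3.26 to −2.68, edgeR adjusted p = 1.7e-14), and 1.32% of all genes tested had a lower value. PDCD1LG2, the other PD-1 ligand, stood at 65.2, 52.2 and 59.8 CPM in Prol and at 25.6, 25 and 24.4 CPM in Sen(IR), again without overlap. Its log2 fold change was −1.24 ± 0.0917 (SE, edgeR adjusted p = 5.06e-11).

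Within each library, the ratio of both PD-1 ligands is free of scaling between libraries. Prol libraries held 68.7 to 82.6 CD274 counts per 100 PDCD1LG2 counts and Sen(IR) libraries held 19.1 to 27.9. These ranges lay apart. Added per length, both ligands summed to 35.5 ± 4.83 CPM per kb in Prol and 11.7 ± 0.28 in Sen(IR) (SD, n = 3). The gene nearest to CD274 that was tested, PLGRKT, starts 12.6 kb away and had a log2 fold change of −0.76, and RIC1, 178.5 kb away, had −0.38.

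MICA and MICB are the MHC class I chain-related ligands of NKG2D. MICA stood at 37.2, 37 and 41.3 CPM in Prol and at 96.1, 94.4 and 99.9 CPM in Sen(IR), with a log2 fold change of 1.33 ± 0.0584 (SE, edgeR adjusted p = 4.97e-15). MICB stood at 20, 20.5 and 23 CPM in Prol and at 17.2, 18.8 and 15.7 CPM in Sen(IR). Every senescent library was lower in MICB than every proliferating one, but the log2 fold change of −0.30 ± 0.0917 (SE, edgeR adjusted p = 0.00687) was under the fold limit. Libraries of Prol held 1.8 to 1.86 MICA counts per MICB count and libraries of Sen(IR) held 5.01 to 6.35. These ranges lay far apart.

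MICA lies among MHC class I genes. HLA-B, whose start is 32.7 kb from that of MICA, and HLA-C, at 127.7 kb, present peptides to T cells and are read by inhibitory receptors of NK cells. Their log2 fold changes were 1.18 and 1.22 (edgeR adjusted p = 1.33e-13 and 1.27e-14). Of the 13 genes tested that start within 250 kb of MICA, 4 were called higher and 4 lower. Among all genes tested these shares were 24.8% and 22.4%. The annotated exons of MICA and MICB share 4.05% and 1.97% of their bases with other genes.

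The ULBP genes encode GPI-anchored or transmembrane NKG2D ligands. ULBP1 stood at 1.96, 1.42 and 1.75 CPM in Prol, on 33 to 47 counts per library, and at 7.91, 7.29 and 5.88 CPM in Sen(IR). It had the largest rise of the 9, with a log2 fold change of 2.04 ± 0.181 (SE, edgeR adjusted p = 1.08e-09). ULBP2, whose start is 21.9 kb away, stood at 9.93, 7.51 and 9.84 CPM in Prol and at 10.2, 10.3 and 9.55 CPM in Sen(IR). These ranges overlapped, and the log2 fold change of ULBP2 was 0.14 (95% interval −0.11 to 0.38, edgeR adjusted p = 0.305). ULBP3 stood at 6.35, 5.53 and 5.09 CPM in Prol and at 4.4, 4.83 and 3.72 CPM in Sen(IR), all lower, with a log2 fold change of −0.38 (edgeR adjusted p = 0.0325) that did not pass the fold limit.

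Of the 1236 stretches of 100 bases in the ULBP2 transcript, 11.9% also occur in RAET1L, which held at most 2 counts in any library. The study's methods count unique reads only, so reads from those stretches may be missing from the ULBP2 count. For ULBP1 and ULBP3 the shared parts were 1.12% and 4.15%. RAET1G, a further NKG2D ligand of this cluster, had a log2 fold change of 1.39 (edgeR adjusted p = 1.89e-07), with a mean of 1.88 CPM in Prol and 4.94 CPM in Sen(IR). Libraries of Prol held 17.7 to 19.7 ULBP1 counts per 100 ULBP2 counts, and libraries of Sen(IR) held 61.5 to 77.4.

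Summed per length, the 5 NKG2D ligands came to 26.7 ± 1.87 CPM per kb in Prol and 42.4 ± 0.567 in Sen(IR) (SD, n = 3), with no overlap. The rise was carried by MICA: its share of the sum was 37.4% ± 1.42 in Prol and 59.3% ± 2.51 in Sen(IR). The share of MICB was 28.3% ± 1.57 and 14.6% ± 1.15. ULBP1, with the largest fold, made up 1.98% ± 0.254 and 5.16% ± 0.707. The size of these shares rests on merged exon lengths, which for MICA is 3851 bases beside 1370 in the canonical transcript.

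**Figure D2:**
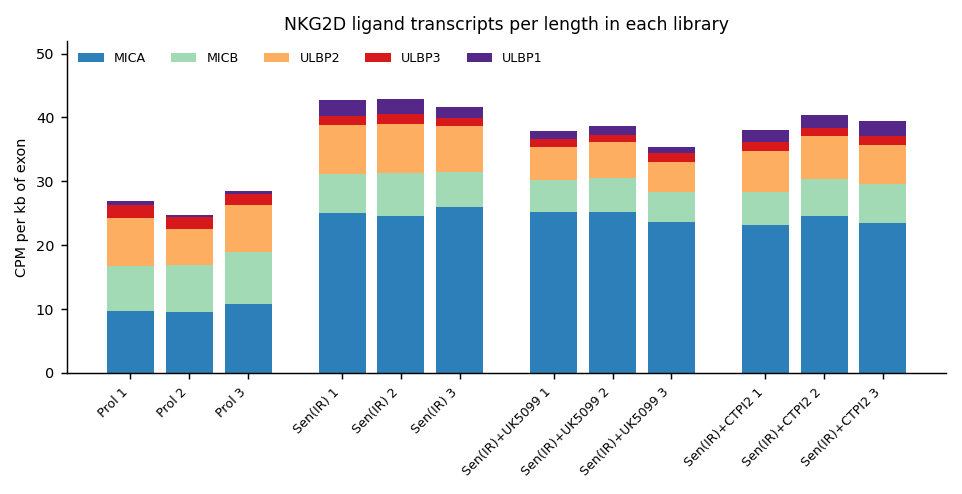
Summed level of the 5 NKG2D ligand genes in each of the 12 libraries, in CPM per kilobase of exon (stacked bars from 0, 1 bar per library, colours for the genes). MICA takes 35.9% to 38.7% of the sum in the Prol libraries and 57.3% to 66.8% in the irradiated libraries, and the sums of Prol, 24.8 to 28.5 CPM per kb, are below all others.

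CD47, the signal read by SIRPα on macrophages, stood at 204, 235 and 228 CPM in Prol and at 349, 358 and 355 CPM in Sen(IR). The log2 fold change was 0.67 ± 0.0517 (SE, edgeR adjusted p = 1.02e-10). PVR stood at 185, 167 and 178 CPM in Prol and at 344, 341 and 319 CPM in Sen(IR), a log2 fold change of 0.92 ± 0.0532 (SE, edgeR adjusted p = 6.47e-13). Neither gene overlapped between the groups. The annotated exons of PVR share 20.6% of their bases with other genes on the same strand, nearly all with ENSG00000279095, which held 408 to 891 counts per library beside 3887 to 7736 for PVR. That gene had a log2 fold change of 1.06.

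**Figure D3:**
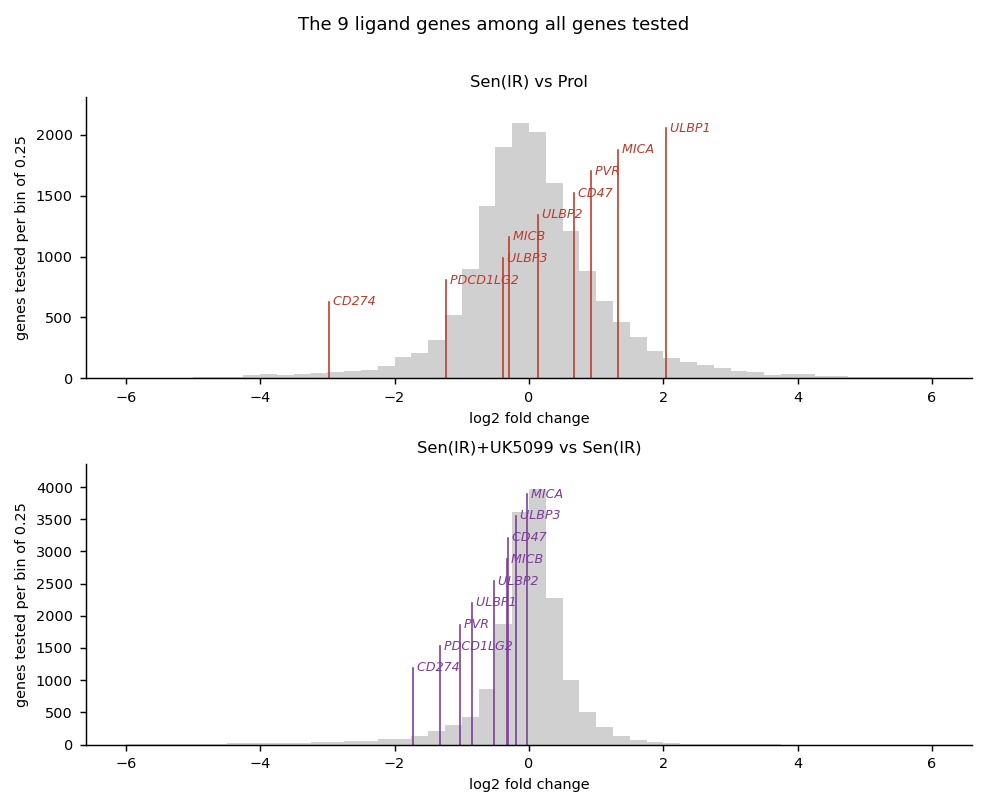
Log2 fold changes of all genes tested (grey bars, number of genes per bin of 0.25) with the 9 ligand genes as lines, for Sen(IR) against Prol (top) and Sen(IR)+UK5099 against Sen(IR) (bottom); line heights only separate the names. In the top panel the ligands spread from −2.97 to 2.04, and in the bottom panel all 9 lie at or below −0.03.

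The effect of the pyruvate carrier inhibitor was tested by comparing Sen(IR)+UK5099 with Sen(IR). None of the 9 ligands rose. CD274 fell to 0.302 of its level in Sen(IR), PDCD1LG2 to 0.398, PVR to 0.494, ULBP1 to 0.557 and ULBP2 to 0.698. These 5 of 9 were called lower and none higher, where 20.8% of all genes tested were called, 12.1% lower and 8.76% higher. The groups did not overlap for 7 of the 9, against 56.6% of all genes. The median log2 fold change of the 9 was −0.52 and that of all genes was 0.01.

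CD274 stood at 1.61, 1.89 and 1.78 CPM with UK5099, on 39 to 51 counts per library, below every Sen(IR) library. The log2 fold change was −1.73 ± 0.201 (SE, 95% interval −2.15 to −1.31, edgeR adjusted p = 2.98e-07). PDCD1LG2 stood at 10.1, 11.6 and 8.09 CPM, also without overlap, with a log2 fold change of −1.33 ± 0.105 (SE, edgeR adjusted p = 5.91e-10). The ratio of both in a library, 15.9 to 22 CD274 counts per 100 PDCD1LG2 counts, overlapped that of Sen(IR). PLGRKT and RIC1, their nearest tested neighbours, had log2 fold changes of 0.18 and −0.01 (edgeR adjusted p = 0.16 and 0.878).

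PVR stood at 175, 161 and 159 CPM with UK5099, less than every Sen(IR) library and overlapping with Prol. The log2 fold change from Sen(IR) was −1.02 ± 0.0533 (SE, edgeR adjusted p = 5.35e-13). ENSG00000279095, which shares exon bases with PVR, had −0.49. NECTIN2, which also binds DNAM-1 and TIGIT and starts 202.4 kb from PVR, had a log2 fold change of −0.56 (edgeR adjusted p = 4.55e-08).

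The NKG2D ligands split. MICA stood at 96.9, 97.2 and 91 CPM with UK5099, overlapping with Sen(IR), and its log2 fold change of −0.03 had a 95% interval of −0.14 to 0.09 (edgeR adjusted p = 0.734). ULBP1 stood at 3.89, 4.59 and 3.25 CPM, below Sen(IR) and above Prol in every library, with a log2 fold change from Sen(IR) of −0.85 ± 0.159 (SE, edgeR adjusted p = 0.000149). ULBP2 stood at 6.99, 7.67 and 6.31 CPM, with a log2 fold change of −0.52 ± 0.12 (SE, edgeR adjusted p = 0.00121). The call of ULBP2 was lost without the third UK5099 library (−0.45) and with upper-quartile scaling (−0.50). MICB, at 13.9, 14.7 and 12.9 CPM, was below every Sen(IR) library, with a log2 fold change of −0.32 (edgeR adjusted p = 0.00805) under the fold limit. ULBP3, at 3.64, 3.26 and 4.45 CPM, overlapped with Sen(IR) and had a log2 fold change of −0.19 (95% interval −0.53 to 0.14, edgeR adjusted p = 0.353).

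The share of MICA in the summed level of the 5 NKG2D ligands, per length, was 66.2% ± 0.873 with UK5099, above every Sen(IR) library, and the sum of the 5 was 37.3 ± 1.7 CPM per kb (SD, n = 3). HLA-B and HLA-C, around MICA, had log2 fold changes of −1.12 and −0.55 (edgeR adjusted p = 1.48e-12 and 3.46e-08). CD47 stood at 278, 287 and 290 CPM, below every Sen(IR) library and above every Prol library. Its log2 fold change from Sen(IR) was −0.31 ± 0.0514 (SE, edgeR adjusted p = 2.88e-05), under the fold limit.

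Other measures moved with UK5099. The 8 fibroblast markers summed to 10534 to 10977 CPM with UK5099 and 19827 to 20392 CPM in Sen(IR). COL3A1, COL1A1, COL1A2 and THY1 were called lower and none higher, where 12.1% and 8.76% of all genes tested were. Mean CPM, Sen(IR) first, went from 7315 to 3516 for COL1A2, 4710 to 1600 for COL1A1 and 2750 to 819 for COL3A1. VIM, PDGFRB, DCN and LUM were not called. In the same order, their means were 3060 and 2778, 156 and 162, 1362 and 1361, and 356 and 370 CPM. Mitochondrially encoded genes took 3.81% to 4.23% of the counts with UK5099 and 2.78% to 3.21% in Sen(IR). Of the 5 senescence label genes, MKI67 (−3.54), LMNB1 (−1.71) and CCNA2 (−0.76) were called lower than in Sen(IR) and HMGB2 (1.48) higher on the log2 scale, while CDKN1A had 0.06 (edgeR adjusted p = 0.395). The part of these measures in the ligand values was not tested.

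**Figure D4:**
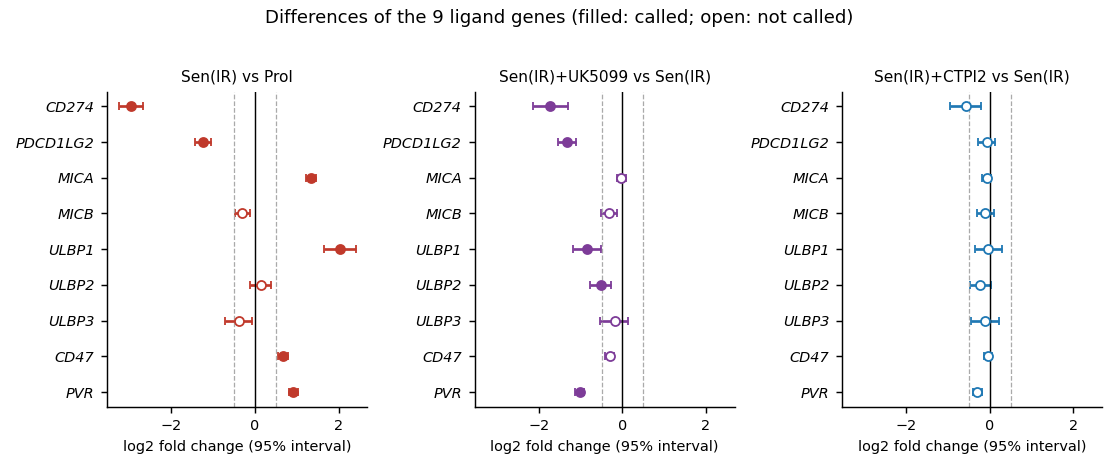
Log2 fold change of each ligand gene with its 95% interval in the comparisons Sen(IR) against Prol, Sen(IR)+UK5099 against Sen(IR) and Sen(IR)+CTPI2 against Sen(IR); filled points are called, open points are not, and dashed lines stand at the fold limit of 0.5 in either direction. The panels hold 6, 5 and 0 called genes, and CD274 is the lowest point in each.

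The citrate carrier inhibitor was compared with Sen(IR) in the same way. None of the 9 ligands was called by edgeR with CTPI2, in a comparison where 0.166% of all genes tested were called, and none was called by DESeq2. At an unadjusted p under 0.05 stood 2 of the 9, CD274 and PVR, where 7.27% of all genes did so. The groups did not overlap for 3 of the 9 (CD274, ULBP2 and PVR), against 15.1% of all genes. The median log2 fold change of the 9 was −0.11 and that of all genes was 0.00321.

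PVR stood at 272, 270 and 275 CPM with CTPI2, between the levels of Sen(IR) and Prol with no overlap on either side. Its log2 fold change from Sen(IR) was −0.30 ± 0.0525 (SE, edgeR adjusted p = 0.00572), which passed the p limit and not the fold limit. CD274 stood at 4.56, 3.92 and 3.29 CPM, on 104 counts or fewer per library and below every Sen(IR) library. Its log2 fold change was −0.58 ± 0.177 (SE, 95% interval −0.95 to −0.21, edgeR adjusted p = 0.269). Without the filter on low counts the same difference had an edgeR adjusted p of 0.00728 and was called, whereas DESeq2 did not call it. The cause was not tested.

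For the other ligands the 95% intervals limit what CTPI2 could have done to the transcript in these libraries. They ran from −0.28 to 0.12 for PDCD1LG2, −0.20 to 0.03 for MICA, −0.30 to 0.09 for MICB and −0.15 to 0.06 for CD47. They were wider for the low ULBP genes, −0.35 to 0.28 for ULBP1, −0.48 to 0.02 for ULBP2 and −0.46 to 0.22 for ULBP3. ULBP2 stood at 8.54, 8.99 and 8.09 CPM, below every Sen(IR) library, with an edgeR adjusted p of 0.732.

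Both inhibitors acted on different carriers at different doses, and the treated groups share the Sen(IR) libraries as their control, so they were also compared directly. Lower with UK5099 than with CTPI2 were 4 of the 9, PDCD1LG2 (−1.25), CD274 (−1.15), ULBP1 (−0.81) and PVR (−0.72 on the log2 scale), where 19.9% of all genes tested were called and 11.7% were called lower. Their edgeR adjusted p-values ran from 2.34e-10 for PVR to 0.000235 for ULBP1. CD47 was lower by a log2 fold change of −0.27 (edgeR adjusted p = 0.000176), under the fold limit. MICA differed by 0.06 (95% interval −0.06 to 0.17) and ULBP3 by −0.07 (95% interval −0.41 to 0.26).

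Each inhibitor-treated group was then set against Prol, to see which ligands remained changed from the proliferating state. With UK5099, 6 of the 9 were called, in a comparison with 53.1% of all genes called, 26.9% higher and 26.2% lower: MICA (1.30) and ULBP1 (1.19) higher, and CD274 (−4.70), PDCD1LG2 (−2.57), MICB (−0.62) and ULBP3 (−0.58) lower. CD274 was then 26-fold lower than in Prol. PVR differed from Prol by −0.10 (95% interval −0.21 to 0.01, edgeR adjusted p = 0.104), and this value was 0.04 with upper-quartile scaling, which also ended the calls of MICB (−0.48) and ULBP3 (−0.44). CD47 remained above Prol by 0.36 (edgeR adjusted p = 1.97e-06), under the fold limit.

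With CTPI2, 7 of the 9 were called, in a comparison with 46.8% of all genes called, 24.8% higher and 21.9% lower: ULBP1 (2.00), MICA (1.24), CD47 (0.63) and PVR (0.62) higher, and CD274 (−3.55), PDCD1LG2 (−1.32) and ULBP3 (−0.50) lower. The ULBP3 calls were close to the fold limit. With UK5099 the call was lost without the first Prol library (−0.49) or without the second UK5099 library (−0.48). With CTPI2 it was lost without the first Prol library (−0.41), without the second CTPI2 library (−0.43), with DESeq2 (−0.50) and with RLE (−0.50) or upper-quartile scaling (−0.39).

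**Figure D5:**
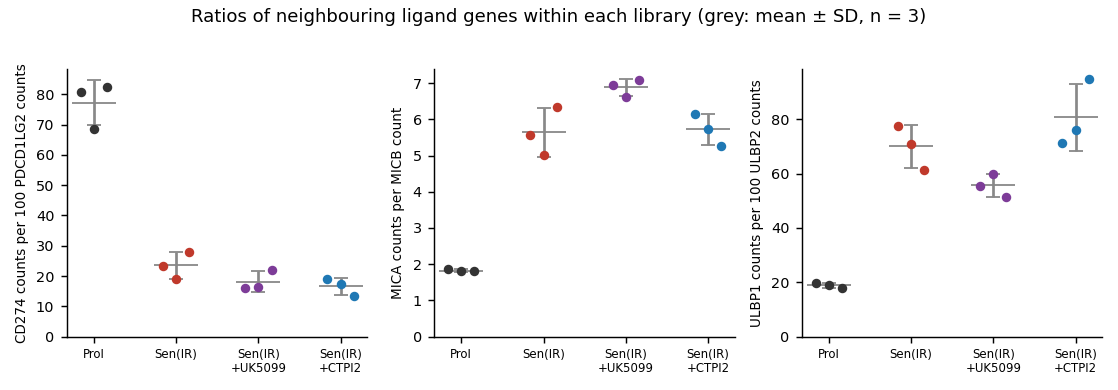
Ratios of neighbouring ligand genes within each library, from raw counts (linear axes from 0; 1 point per library, grey bars for the mean ± SD of 3): CD274 per 100 PDCD1LG2, MICA per MICB, and ULBP1 per 100 ULBP2. The Prol libraries lie apart from all irradiated libraries in each panel, with 68.7 to 82.6, 1.8 to 1.86 and 17.7 to 19.7.

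Further ligands that NK cells read, listed with the death receptors FAS, TNFRSF10A and TNFRSF10B, give the setting. Of these 16 genes, 15 were tested. In Sen(IR) against Prol 6 were called higher, among them the death receptors, and 3 lower, where 24.8% and 22.4% of all genes were. The median log2 fold change was 0.28. ICAM1, the adhesion ligand of LFA-1, stood at 62.4, 64 and 63.4 CPM in Prol and at 302, 307 and 301 CPM in Sen(IR), a log2 fold change of 2.26 (edgeR adjusted p = 4.91e-19). HLA-E, the ligand of the NKG2A receptor, had 1.51 and TNFRSF10B, a death receptor for TRAIL, had 1.27. NCR3LG1, the B7-H6 ligand of NKp30, had −0.96. Its libraries overlapped, at 16.9, 14.4 and 6.98 CPM in Prol and 7.16, 6.44 and 5.88 CPM in Sen(IR).

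With UK5099, 8 of these 15 were called lower and none higher, where 12.1% and 8.76% of all genes were, with a median log2 fold change of −0.54. ICAM1 stood at 19.3, 16.6 and 15.6 CPM, below every Prol library, with a log2 fold change from Sen(IR) of −4.15 (edgeR adjusted p = 2.64e-22). CLEC2B, the AICL ligand of NKp80, had −2.19. NECTIN3 and the death receptor FAS each had −0.65. With CTPI2, none of the 15 was called by edgeR, and 3 had an unadjusted p under 0.05, as did 7.27% of all genes.

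Of 15 further checkpoint ligands, 8 were tested, and 6 were called higher and none lower in Sen(IR), beside 24.8% and 22.4% of all genes, with a median log2 fold change of 0.80. TNFSF18, the ligand of the costimulatory receptor GITR, stood at 1.83, 1.72 and 2.08 CPM in Prol and at 203, 189 and 201 CPM in Sen(IR), a log2 fold change of 6.71 (edgeR adjusted p = 1.98e-22). VSIR (VISTA) had 0.80 and TNFRSF14, which binds BTLA, had 0.80. TNFSF4, the OX40 ligand, had 0.59, and its call was lost without the second Prol library (0.41). The PD-1 ligands thus fell while TNFSF18 rose in the same libraries.

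With UK5099, 5 of the 8 were called lower and none higher, beside 12.1% and 8.76% of all genes, with a median log2 fold change of −1.43. TNFSF18 stood at 0.165, 0.482 and 0.232 CPM, below Prol, on 4, 13 and 6 counts. Its log2 fold change from Sen(IR) was −9.35 (edgeR adjusted p = 6.32e-23), a size that is uncertain at so few counts. TNFSF4 had −3.29 and VSIR had −1.32. With CTPI2, 1 of the 8 was called, in a comparison with 0.166% of all genes called: TNFSF18, at 126, 117 and 140 CPM (log2 fold change −0.63, edgeR adjusted p = 7.89e-06).

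CD47 is one of several signals that steer phagocytosis. Of 8 further genes for such signals, their receptors and the enzymes that modify them, 5 were called higher and 1 lower in Sen(IR), where 24.8% and 22.4% of all genes were, with a median log2 fold change of 1.02. CD24, the ligand of Siglec-10, had 2.73 from a mean of 0.594 CPM in Prol, and LRP1, a phagocytic receptor, had 1.47. QPCT, a glutaminyl cyclase, had 1.60, and THBS1, a secreted ligand of CD47, had −1.41. With UK5099, 1 of the 8 was called higher and 2 lower, where 8.76% and 12.1% of all genes were. THBS1 was higher by 0.53 and QPCTL, the enzyme that modifies CD47 for SIRPα binding, was lower by a log2 fold change of −0.62. CALR, an eat-me signal when at the surface, had −0.52, a call lost without the third UK5099 library (−0.48) and with upper-quartile scaling (−0.50). With CTPI2, none of the 8 was called by edgeR, and 2 had an unadjusted p under 0.05 (7.27% of all genes).

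Ligands are also removed by proteases and held by partners. Of 10 genes for shedding and turnover, 4 were called in Sen(IR), close to the 47.2% of all genes that were, and all 4 were higher: ADAM17 (0.94), ADAM9 (0.69) and MMP14 (0.62), proteases that cut surface proteins, and STUB1 (0.61), an E3 ligase. With UK5099, 3 of the 10 were called, where 20.8% of all genes were. TIMP3, an inhibitor of ADAM17, was lower by a log2 fold change of −1.90, and HIP1R (0.98), which sends PD-L1 to lysosomes, and CMTM4 (0.62), a relative of CMTM6, were higher. CMTM6, which protects PD-L1 from degradation, stood at a mean of 387 CPM in Sen(IR), and UK5099 left a difference of −0.01 on the log2 scale (95% interval −0.11 to 0.09). With CTPI2, none of the 10 was called by edgeR, and 4 had an unadjusted p under 0.05 (7.27% of all genes).

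Of 20 known regulators of these ligands, 5 were called higher and 4 lower in Sen(IR), a share close to the 47.2% of all genes called. The interferon-γ receptor gene IFNGR1 (1.03) rose, and the cell cycle genes E2F1 (−2.08) and CHEK1 (−1.26) fell. IRF1, the interferon-responsive activator of CD274, stood at 37.3, 40.4 and 39.6 CPM in Prol and at 79.8, 78.3 and 75.3 CPM in Sen(IR), a log2 fold change of 0.99 (edgeR adjusted p = 1.16e-12), while CD274 was lower. With UK5099, IRF1 stood at 35.5, 33.4 and 35.5 CPM (log2 fold change −1.16, edgeR adjusted p = 3.75e-13) and NFKB1 had −0.57. These were the 2 called of the 20, in a comparison with 20.8% of all genes called. With CTPI2, none of the 20 was called by edgeR, and 1 had an unadjusted p under 0.05 (7.27% of all genes).

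Genes with the most similar profile over the 12 libraries were found by the root mean square difference of centred log2 CPM among 12139 genes. The nearest to CD274 were TCF19 (0.224) and KIF23 (0.251), and 338 genes were nearer to CD274 than PDCD1LG2 was. The nearest to PDCD1LG2 were IL4R (0.163) and SLC43A3 (0.166). REEP5 (0.0394) and PLOD2 (0.0614) were nearest to MICA, ACAD9 (0.0742) to MICB, and CCND1 (0.208) and WLS (0.214) to ULBP1.

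SLC52A2 (0.0898) and CDC37 (0.109) were nearest to ULBP2, and MFAP3 and DNAJC11 (0.117 each) to ULBP3. CD44 (0.05) and COG6 (0.0538) were nearest to CD47, and FICD (0.104) and BID (0.109) to PVR. For none of the 9 was another ligand of the set the nearest gene, since at least 295 genes were nearer than the nearest other ligand. These distances describe 4 group levels and carry no test.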

How the data were processed

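Total RNA of MRC5 cells was sequenced as read pairs, and whether libraries or counting kept strand is not given in the sources used here. Per the submitters' processing notes, reads were handled with Trimmomatic 0.36, STAR 2.5.2b and featureCounts of Subread 1.5.2 on GRCh38. The deposited table holds raw counts per gene, which the authors did not normalize.

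edgeR 4.0.16 in R 4.3.3 was run on the deposited counts of all 12 libraries in 1 fit with the group as its term. Genes were kept by filterByExpr, libraries were scaled by TMM, and the quasi-likelihood test was used with Benjamini-Hochberg adjustment over 16251 genes. Called genes had an adjusted p under 0.05 and an absolute log2 fold change over 0.5. CPM used the TMM-scaled library size, and lengths and positions came from GENCODE v44. The test was checked on simulated data.

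Alternatives were DESeq2 1.42.0, a fit with a replicate block, upper-quartile or RLE scaling, the table without a low-count filter, a fit of the compared groups alone, an unadjusted p limit, a fold limit of 1 and leaving out each library. Each of the 9 genes was named. Of the other lists, up to 4 called genes with the largest log2 fold change and a mean log2 CPM over 1 were named for Sen(IR) against Prol and Sen(IR)+UK5099 against Sen(IR), with both nearest profiles of each ligand. Some genes that this rule names are not reported here. Genes that start within 250 kb of a ligand were named as neighbours, and CMTM6 was named after its values were seen. The members and lists were chosen with earlier results of these data known.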

Additional observations from a re-analysis of the deposited data

How the results depend on the processing

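Calls of the ligands kept their direction in every alternative, and of 648 recomputed fold changes 630 stayed on their side of the thresholds, 11 lost and 1 gained a call, and 6 values near 0 changed sign. With a fold limit of 1, the called ligands numbered 4 for Sen(IR) against Prol (without PVR and CD47; 24.8% of all genes), 3 for Sen(IR)+UK5099 against Sen(IR) (9.3%), 2 for Sen(IR)+UK5099 against Sen(IR)+CTPI2 (8.72%), 4 for Sen(IR)+UK5099 against Prol (30.6%) and 4 for Sen(IR)+CTPI2 against Prol (24.8%). For Sen(IR)+CTPI2 against Sen(IR) the count went from 0 to 1 (CD274) with an unadjusted p and to 1 without the filter on low counts (−0.59); the cause was not tested. Upper-quartile scaling moved the median of all genes by 0.121 for Sen(IR), 0.14 for Sen(IR)+UK5099 and 0.111 for Sen(IR)+CTPI2 against Prol. It turned PVR in Sen(IR)+UK5099 against Prol to 0.0425 and ULBP2 in Sen(IR)+CTPI2 against Prol to 0.0201, and ended the calls of MICB (−0.48) and ULBP3 (−0.44) in Sen(IR)+UK5099 against Prol and of ULBP3 in Sen(IR)+CTPI2 against Prol (−0.39). Leaving out each library in turn gave ranges that crossed 0 for MICA in Sen(IR)+UK5099 against Sen(IR) (−0.0439 to 0.00383), ULBP1 in Sen(IR)+CTPI2 against Sen(IR) (−0.148 to 0.0586) and ULBP3 in Sen(IR)+UK5099 against Sen(IR)+CTPI2 (−0.208 to 0.0267). Replicate numbers left no sign of pairing: over 18 same-numbered pairs the deviations correlated by −0.0511 to 0.0423, and over 36 other pairs by −0.0622 to 0.102. These correlations cannot exclude shared cultures or batches. With the replicate block, the called ligands again numbered 6, 5, 0, 4, 6 and 7 in the 6 comparisons, and 7649 genes of all tested were called for Sen(IR) against Prol beside 7677 without it. CD274 with UK5099 rests on 39 to 51 counts per library and ULBP1 in Prol on 33 to 47, which widens their intervals.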
